A study of Mus musculus with 6 samples.

Results

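The nuclei described here carried messengers of the implanted tumor cells and of macrophages together. They were selected on measured counts: only nuclei in which 100 to 7500 genes were detected and less than 20% of counts were mitochondrial entered, and a nucleus was double-positive when Hmga2, Mecom and Slit2 together made up 0.5% or more of its unique molecular identifiers (UMIs, the counted molecules) and when Adgre1, Cadm1, Csf1r, Cd84 and Mrc1 together had 3 or more counts spread over 2 or more of these genes. Of 18014 kept nuclei, 574 (3.19%) met both conditions. They were set beside 9586 tumor-only nuclei, which met only the tumor condition, and 2735 macrophage-only nuclei, which met only the macrophage condition. A further 5119 nuclei met neither. Because the 8 genes chose the classes, values of these genes, and all other differences between the classes, are given as descriptions without a test.

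Macrophages enter tumors from the blood and from the surrounding tissue, take up dead and dying cells, and can fuse with one another into giant cells. A droplet that shows transcripts of a tumor cell and of a macrophage can hold a nucleus of each kind, a nucleus together with free RNA of the lysed tissue, a nucleus that has taken up foreign material, or a fused cell. Droplet-based nucleus sequencing reads all RNA in a droplet under 1 barcode, so the counts alone do not separate these states.

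The libraries were made from subcutaneous tumors that grew from TC1 cells, an epithelial lung tumor line of the mouse, although the tissue label reads lung. All hosts were MCT2 loxP/loxP; Cre+ males on a C57BL/6 background. Knockout (KO) mice received tamoxifen for 5 days from 8 weeks of age to delete the monocarboxylate transporter MCT2, control (CO) mice received vehicle, and tumors grew for 24 days; the implanted cells were not deleted for MCT2, and no group received tamoxifen without Cre. With 3 libraries a group, p-values measure the spread between libraries, since the labels do not say more about the origin of the replicates, and the smallest p that an exact permutation test of 3 against 3 can give is 0.1.

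Each library held between 1916 and 4934 barcodes and 13252572 to 22057084 UMIs, and the median kept nucleus had between 1099 (KO 3) and 4897.5 (KO 2) UMIs. Library pairs shared 15 to 19 barcodes. The barcodes of 3 double-positive nuclei also occurred in another library, and no barcode was shared between double-positive nuclei of different libraries. KO 2 and KO 3 stood apart from the other libraries in the depth and macrophage fraction of the class, so group differences are given with and without them, where KO 1 alone stands for KO.

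The CO libraries held 83, 71 and 61 double-positive nuclei (replicates 1, 2 and 3) and the KO libraries held 153, 68 and 138. Hmga2, a chromatin protein of embryonic and tumor tissue, was detected in 94.1% to 100% of the double-positive nuclei of a library. Mecom, a zinc-finger transcription factor, was detected in 92.0% to 100%, and Slit2, a secreted guidance ligand, in 96.7% to 100%. On the GRCm38 build, Hmga2 lies on chromosome 10 (120361275 to 120476469), Mecom on chromosome 3 (29951296 to 30548008) and Slit2 on chromosome 5 (47983138 to 48307733). Summed over the class, these 3 genes reached 10304, 11006 and 15183 CPM (counts scaled to 1000000 per class and library) in CO and 10638, 19412 and 17483 CPM in KO. Their level was below that of tumor-only nuclei in all 6 libraries, where it lay between 11514 and 22507 CPM.

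Among the macrophage genes of the rule, Adgre1, which encodes F4/80, was detected in 74.7%, 70.4% and 82.0% of the CO double-positive nuclei and in 49.7%, 51.5% and 63.04% of those of KO. Cadm1, an adhesion molecule, was detected in 61.4%, 80.3% and 78.7% in CO and in 68.0%, 91.2% and 85.5% in KO. Csf1r, the receptor for the macrophage growth factor CSF1, ranged from 39.1% to 54.4%. Cd84, a receptor of the SLAM family, ranged from 32.4% to 69.0%, and Mrc1, the mannose receptor, from 31.9% to 65.6%. The 5 genes together reached 645, 536 and 532 CPM in CO and 473, 614 and 821 CPM in KO, between the 16.4 to 100.4 CPM of tumor-only nuclei and the 3555 to 4481 CPM of macrophage-only nuclei.

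Within each library the 5 macrophage genes stood in nearly the same proportions in double-positive as in macrophage-only nuclei. Cadm1 supplied 33.9%, 33.6%, 37.2% and 27.6% of the 5-gene counts of double-positive nuclei in CO 1, CO 2, CO 3 and KO 1, and 34.3%, 38.2%, 34.8% and 28.4% in macrophage-only nuclei. In KO 2 and KO 3 the same shares were 51.9% and 56.2% in double-positive and 50.9% and 54.5% in macrophage-only nuclei. For Cadm1 the proportion therefore differed more between libraries than between the 2 classes of a library.

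**Figure D1:**
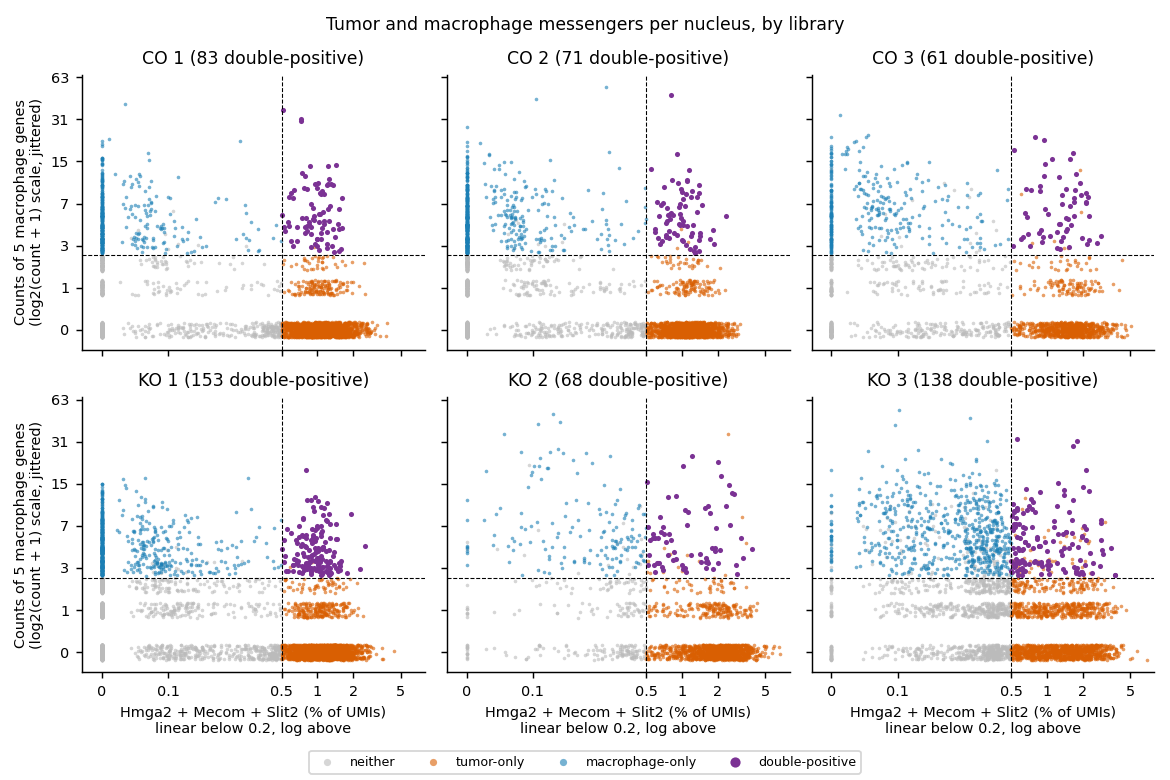
Each point is a kept nucleus, with the summed Hmga2, Mecom and Slit2 share of its UMIs on the horizontal axis (linear below 0.2, logarithmic above) and the summed counts of the 5 macrophage genes on the vertical axis (log2 scale of count plus 1, jittered). Dashed lines mark the 0.5% and 3-count limits, and nuclei above the count limit with counts in a single macrophage gene stay tumor-only or neither. Macrophage-only nuclei sit at or near 0 on the horizontal axis in CO 1, CO 2 and KO 1 and reach up to the 0.5% line in KO 2 and KO 3.

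Near the tumor limit, KO 3 held the most nuclei by count, and KO 2 and KO 3 the largest shares. In CO 1, CO 2, CO 3, KO 1 and KO 2, 8, 3, 2, 8 and 10 double-positive nuclei had a tumor-gene share between 0.5% and 0.6%, against 34 of 138 in KO 3. This was 14.7% of the class in KO 2, 24.6% in KO 3 and 3.28% to 9.64% in the other libraries. Just outside, macrophage-gated nuclei with a share from 0.4% to under 0.5% numbered 3, 5, 4, 6 and 17 in the first 5 libraries and 52 in KO 3. All macrophage-gated nuclei numbered 513, 624, 373, 808, 220 and 771 (CO 1 to CO 3, KO 1 to KO 3). At the macrophage limit, 16, 13, 12, 66, 20 and 50 double-positive nuclei (CO 1 to CO 3, KO 1 to KO 3) had exactly 3 counts, and 24, 19, 16, 32, 25 and 86 tumor-gated nuclei had 2 counts in 2 genes and stayed outside. Membership thus had no gap at either limit, and KO 3 held the most nuclei by count at the tumor limit on either side.

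Double-positive nuclei were deep in 4 libraries and shallow in part of the other 2. Their median was 9582, 11149 and 9837 UMIs in CO 1, CO 2 and CO 3, 8137 in KO 1, 4220 in KO 2 and 1400 in KO 3. Tumor-only nuclei had medians of 5568, 5737, 4615, 4151, 6865 and 1202 UMIs in the same order, and macrophage-only nuclei had 1300.5, 1366, 1463, 1270, 1536.5 and 1561. In the CO libraries and KO 1, 55.7% to 61.4% of the double-positive nuclei were above the upper quartile of tumor-only nuclei, against 27.9% in KO 2 and 34.1% in KO 3.

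Divided by the sum of the tumor-only and macrophage-only medians of the same library, the double-positive median was 1.40, 1.57 and 1.62 for CO and 1.501, 0.502 and 0.507 in KO. CO averaged 1.53 ± 0.117 and KO 0.837 ± 0.575 (SD, n = 3), and the groups overlapped because KO 1 lay within the CO range (exact permutation p 0.2, two-sided, Benjamini-Hochberg adjusted 0.333 over 5 such tests). The difference was −0.691, and −0.0267 without KO 2 and KO 3.

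**Figure D2:**
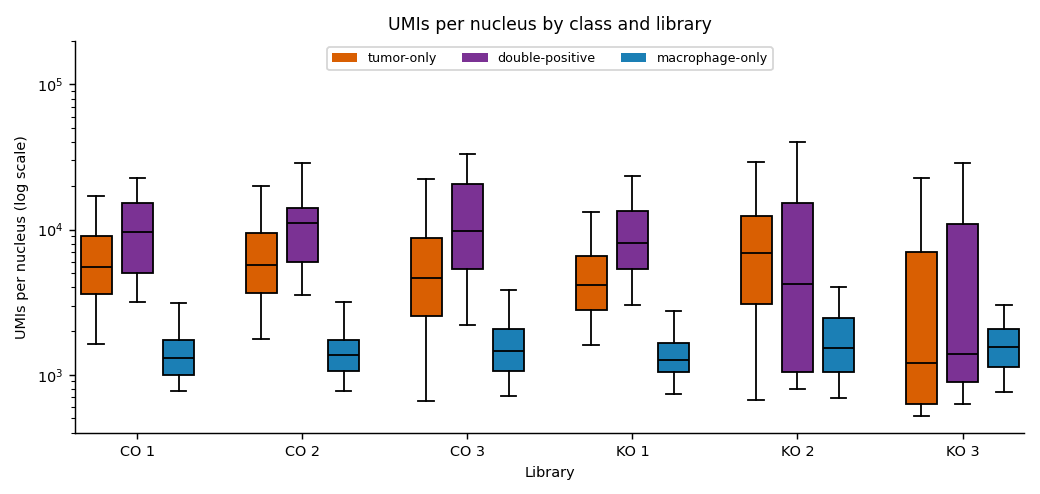
UMIs per nucleus (log axis) by library for the 3 classes; boxes show the quartiles, the line is the median and whiskers reach the 5th and 95th percentiles. Double-positive nuclei have higher medians than both other classes in CO 1, CO 2, CO 3 and KO 1, a median of 4220 UMIs in KO 2 and one of 1400 in KO 3, with wide boxes in these 2 libraries.

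The share of double-positive nuclei among tumor-gated nuclei was higher at 20000 or more UMIs than between 2000 and 5000 in all 6 libraries. Among tumor-gated nuclei with 20000 or more UMIs, 14.7%, 12.2% and 23.0% were double-positive in CO and 26.2%, 7.03% and 15.6% in KO. Between 2000 and 5000 UMIs the shares were 2.68%, 2.29% and 3.55% in CO and 2.51%, 2.45% and 5.37% in KO. In KO 2 and KO 3 the share was raised again among shallow nuclei, with 8.43% and 6.03% under 1000 UMIs and 11.4% and 15.1% from 1000 to 2000, while the other 4 libraries had 0.415% to 4.17% from 1000 to 2000. Seen from the macrophage side, all macrophage-gated nuclei with 20000 or more UMIs were double-positive in each of the 6 libraries, and 92.9% to 100% of those between 10000 and 20000 UMIs. The minimum of 3 counts is met more easily in deep nuclei, and few macrophage-only nuclei were deep.

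Under 2000 UMIs the libraries split. The double-positive nuclei of CO 1, CO 2, CO 3 and KO 1 all had 1000 or more UMIs, and 2, 1, 3 and 1 of them had under 2000. In KO 2, 14 had under 1000 and 13 from 1000 to under 2000, and in KO 3 the counts were 47 and 28. After each nucleus was thinned to 1000 UMIs, with shallower nuclei left out, 4 of 83, 3 of 71, 5 of 61 and 4 of 153 double-positive nuclei still passed both conditions in CO 1, CO 2, CO 3 and KO 1, against 15 of 54 in KO 2 and 25 of 91 in KO 3. The tumor condition was kept by 77, 68, 59, 150, 53 and 89 of them and the macrophage condition by 5, 3, 5, 4, 15 and 25. The conditions themselves set this order, because thinning keeps a share of UMIs on average and lowers a count.

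To measure how much of a nucleus each profile filled, the counts of each nucleus outside the 8 rule genes and the mitochondrial genes were fitted as a mixture of the macrophage-only and tumor-only profiles of its own library. The fitted share of the macrophage profile is called the macrophage fraction, from 0 to 1. It is relative to these profiles, which include any free RNA of the library. All other genes took part in the fit, so the level of a gene list that the fraction sets is not independent of that list, and a ratio near 1 is partly given by the fit. For the Y-linked genes, the fraction was refitted without them. Scored against profiles built from the other nuclei, macrophage-only nuclei had median fractions of 0.861 to 0.965 and tumor-only nuclei had medians of 1.28e-06 to 0.000797 in the libraries other than KO 3, where the median was 0.119.

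The median macrophage fraction of double-positive nuclei stood at 0.190, 0.167 and 0.165 in the CO libraries and at 0.152, 0.339 and 0.678 in the KO libraries. CO averaged 0.174 ± 0.0137 and KO 0.390 ± 0.267 (SD, n = 3), a difference of 0.216 within the spread of the KO libraries (exact permutation p 0.4, adjusted 0.5). KO 1 lay below all CO libraries and KO 2 and KO 3 above them, and without KO 2 and KO 3 the difference was −0.0218. Over all libraries, 154 double-positive nuclei had fractions under 0.1, 209 from 0.1 to 0.3, 117 from 0.3 to 0.7 and 94 of 0.7 or more. These ranges were chosen after the values were seen.

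**Figure D3:**
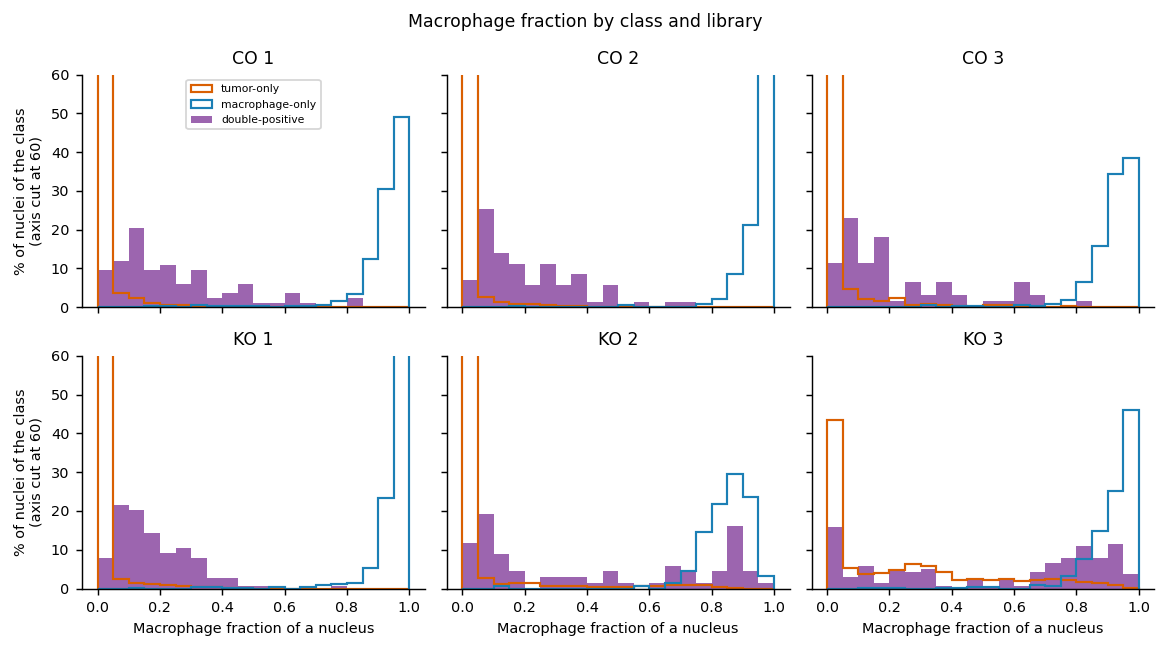
Percent of the nuclei of each class (vertical axis, ended at 60) against the macrophage fraction (horizontal axis) in each library. Double-positive nuclei (filled) lie mostly under 0.4 in CO 1, CO 2, CO 3 and KO 1, and form a second peak over the macrophage-only range in KO 2 and KO 3, where 43.2% had fractions of 0.7 or more.

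The nuclei with a fraction of 0.7 or more belonged to KO 2 (22 of 68) and KO 3 (67 of 138) in 89 of 94 cases. The other 5 were 1.36% of the double-positive nuclei of CO 1, CO 2, CO 3 and KO 1. In KO 2 and KO 3 these 89 nuclei had a median of 932 UMIs, 86 of them had under 2000 UMIs, and their median tumor-gene share was 0.637% and 0.620% in the 2 libraries, close to the limit of 0.5%. Nuclei with a fraction under 0.1 had a median of 16947 UMIs and a median tumor-gene share of 1.34% over all libraries. The class thus held deep nuclei with a small macrophage share in every library and shallow nuclei with a large one mainly in KO 2 and KO 3.

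Multiplying the fraction by the UMIs of a nucleus gives a macrophage part and a tumor part. The fraction was fitted outside the mitochondrial genes, but all UMIs were multiplied. Mitochondrial genes made up 49591 to 91965 CPM of double-positive and 7816 to 18877 CPM of macrophage-only nuclei, so the macrophage part is overstated. The median macrophage part was 1412, 1449 and 1547 UMIs in CO and 1134, 940.2 and 858 in KO. Divided by the UMIs of the median macrophage-only nucleus, it came to 1.09, 1.06 and 1.06 in CO and to 0.893, 0.612 and 0.550 in KO. The median tumor part, divided by the UMIs of the median tumor-only nucleus, came to 1.41, 1.61 and 1.78 in CO and to 1.64, 0.413 and 0.361 in KO. Double-positive and macrophage-only nuclei had to pass the same minimum of 3 macrophage-gene counts, which by itself asks for a macrophage part of some size, so these ratios are descriptions of what the rule selected.

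A readout from genes outside the rule came from the host. The Y-linked genes Ddx3y, an RNA helicase, Eif2s3y, a translation initiation factor subunit, and Kdm5d and Uty, histone demethylases, are transcribed in male host cells, and together they reached 432 to 642 CPM in macrophage-only but 10.7 to 35.9 CPM in tumor-only nuclei. Double-positive nuclei had 78.5, 85.1 and 93.1 CPM in CO and 85.6, 95.04 and 119 CPM in KO. Each of the 4 genes lay between the other 2 classes in all 6 libraries. The rule asked for macrophage-gene counts, so a level above that of tumor-only nuclei was partly given by the selection. At least 1 Y-linked count was found in 50.6%, 47.9% and 60.7% of the CO and 51.6%, 51.5% and 41.3% of the KO double-positive nuclei, beside 46.5% to 59.9% of macrophage-only and 5.89% to 15.3% of tumor-only nuclei.

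Those shares compare nuclei of unequal depth. At 1000 UMIs per nucleus, 8.43%, 11.3% and 18.03% of CO and 13.7%, 29.6% and 16.5% of KO double-positive nuclei kept a Y-linked count, against 37.0% to 46.7% of macrophage-only and 1.19% to 4.53% of tumor-only nuclei. This left out 14 double-positive nuclei of KO 2 and 47 of KO 3, 32 to 133 macrophage-only and 27 to 732 tumor-only nuclei per library as too shallow.

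The macrophage fraction, refitted without the Y-linked genes, sets how many Y-linked counts the double-positive nuclei of a library would hold. CO 2 had 72 counts against 64.8 so set, CO 3 had 78 against 73.8, KO 1 had 129 against 122, KO 2 had 68 against 63.8 and KO 3 had 122 against 119. The ratios of 1.03 to 1.11 had 95% exact Poisson intervals that held 1 in these 5 libraries. CO 1 was the exception, with 70 counts against 100.1, a ratio of 0.699 (0.545 to 0.884). These intervals, like all intervals given here, cover counting error only. The fraction is a share of counts outside the rule and mitochondrial genes, but was multiplied here by all UMIs, which affects the ratios. Multiplied by the counts it was fitted on, with the Y-linked genes in the fit, it gave ratios of 0.739, 1.19 and 1.10 in CO and 1.13, 1.11 and 1.05 in KO.

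**Figure D4:**
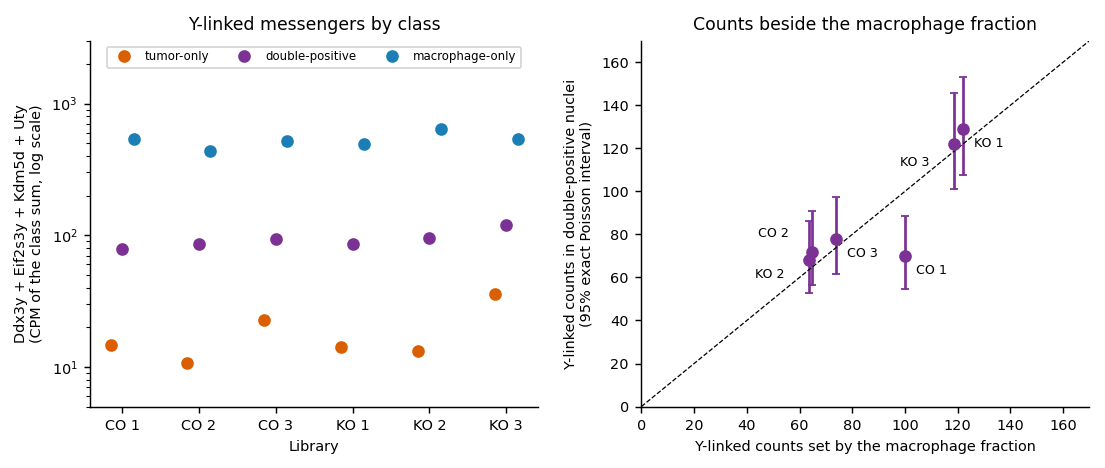
Left, summed CPM of Ddx3y, Eif2s3y, Kdm5d and Uty (log axis) in the 3 classes of each library. Right, Y-linked counts in double-positive nuclei (with 95% exact Poisson intervals) against the counts set by their macrophage fraction; the dashed line marks equality. Double-positive nuclei lie between the other classes in all 6 libraries, and CO 1 is the library whose interval lies wholly below the line.

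Slc16a7, which encodes MCT2, followed the same order. Double-positive nuclei held 14, 17 and 17 Slc16a7 counts in CO (15.7, 20.1 and 20.3 CPM) and 32, 19 and 31 in KO (21.2, 26.6 and 30.2 CPM). Tumor-only nuclei had 0.491 to 5.57 CPM. Macrophage-only nuclei had 106, 102 and 193 CPM in CO and 145, 153 and 154 CPM in KO, where all KO libraries lay within the CO range. In double-positive nuclei KO over CO gave 0.51 on the log2 scale (SE 0.31), with an edgeR adjusted p of 0.798. The gene was thus not lower in the libraries labelled KO, and counts from the 3′ end of a gene check the deletion only where it removes that end, which the sources used here do not state.

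Tumor messengers were also counted in macrophage-only nuclei and in nuclei gated on genes of T and natural killer cells. Empty droplets were not analysed here, so free RNA and RNA of a second nucleus were not told apart. The median tumor-gene share of macrophage-only nuclei was 0% in CO 1, CO 2 and KO 1, 0.0512% in CO 3, 0.185% in KO 2 and 0.199% in KO 3. The rule holds these nuclei under 0.5%. Over all macrophage-gated nuclei the medians were 0.0688% in CO 3, 0.278% in KO 2 and 0.241% in KO 3, and again 0% in the other 3 libraries. Hmga2 was detected in 14.9% to 31.1% of macrophage-only nuclei in CO 1, CO 2, CO 3 and KO 1, and in 55.3% and 73.5% in KO 2 and KO 3. KO 2 and KO 3, with the most tumor messenger in macrophage-only nuclei, were also the libraries with shallow double-positive nuclei.

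A nucleus was gated as T/NK when genes of the T and natural killer cell list had 3 or more counts over 2 or more genes. Of these nuclei, 36.4%, 29.2% and 34.8% in CO and 18.8%, 47.9% and 36.7% in KO also met the tumor condition, beside 16.2%, 11.4% and 16.4% in CO and 18.9%, 30.9% and 17.9% in KO of the macrophage-gated nuclei. The share of macrophage-gated nuclei with tumor messengers was therefore below the T/NK share in 5 libraries, and stood at 18.9% against 18.8% in KO 1. Tumor-positive T/NK nuclei had medians of 10576, 13677, 15718, 8809, 4751 and 4672 UMIs (CO 1 to CO 3, KO 1 to KO 3), while the T/NK nuclei without tumor messengers had 1070 to 1560. The T/NK gate held 48 to 177 nuclei a library. It was set whatever the tumor and macrophage conditions gave, so its tumor-positive nuclei were not shown to be lymphocytes. Of the T/NK nuclei, 8.33% to 19.5% also met the macrophage condition. The tumor-positive T/NK nuclei included 2 to 11 double-positive nuclei a library, so the 2 groups were not separate.

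Lymphocyte genes were also found within the class. The T/NK gate was met by 13.3%, 7.04% and 18.03% of CO and 3.92%, 2.94% and 7.25% of KO double-positive nuclei, by 1.22% to 2.79% of macrophage-only nuclei and by 0.484% to 3.50% of tumor-only nuclei. The double-positive share was the highest of the 3 classes in all 6 libraries, and the classes differed in depth as given above.

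Doublet scores, which compare each nucleus with artificial sums of nuclei of its library, were higher in double-positive nuclei. Median Scrublet scores were 0.184, 0.178 and 0.158 in CO and 0.172, 0.109 and 0.107 in KO. Of the nuclei with the highest scores in each library, taken at 0.8% per 1000 barcodes, 179 were double-positive, which is 31.2% of the class, against 2.35% of tumor-only and 1.32% of macrophage-only nuclei. By library the double-positive share came to 37.3%, 39.4% and 26.2% in CO and to 42.5%, 20.6% and 18.1% in KO. Pooled over libraries, 51.3% of the nuclei with a fraction of 0.3 to 0.7 were among the highest scores, against 4.26% of those of 0.7 or more. By library the median score was highest at fractions of 0.3 to 0.7 in CO 2, CO 3 and KO 1, under 0.1 in CO 1, and at 0.1 to 0.3 in KO 2 and KO 3. Scores of this kind depend on the same mixed profile that the rule asks for, and which nuclei were doublets was not tested.

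Macrophage genes outside the rule were present throughout. Of 20 such genes, 18 lay between tumor-only and macrophage-only nuclei in all 6 libraries. Msr1, a scavenger receptor, had 37.0 to 106 CPM in double-positive, 2.94 to 15.6 in tumor-only and 256 to 683 in macrophage-only nuclei. Stab1, a scavenger receptor for modified lipoproteins and dying cells, had 23.8 to 67.0, 2.12 to 10.5 and 163 to 458 CPM. C1qa, a subunit of complement C1q, had 40.5 to 149.9 CPM against 7.70 to 77.5 and 187 to 786. The exceptions were Mertk, an engulfment receptor that tumor-only nuclei also expressed at 217 to 341 CPM, and Itgam, which was listed at 0 in all 3 classes.

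Pan-leukocyte genes gave the same picture, with 8 of 8 between the classes in all 6 libraries. Ptprc, the leukocyte antigen CD45, had 178 to 390.4 CPM in double-positive, 18.6 to 101 in tumor-only and 1135 to 2375 in macrophage-only nuclei. Spi1, the myeloid transcription factor PU.1, had 67.1 to 119 CPM against 3.88 to 25.8 and 395 to 608. Summed, the macrophage genes outside the rule were 0.943 to 1.12 times, and the leukocyte genes 0.942 to 1.14 times, the level that the macrophage fraction sets, in a fit that these genes took part in.

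Summed, tumor genes outside the rule were below their tumor-only level in all 6 libraries, at 5662 to 12734 against 6322 to 13284 CPM. Of 20 genes, 14 were higher in tumor-only than in macrophage-only nuclei in all 6 libraries, and 13 were higher in double-positive than in macrophage-only nuclei in all 6. Tnc, the matrix protein tenascin-C, had 493 to 1104 CPM in double-positive, 544 to 1090.2 in tumor-only and 115 to 259 in macrophage-only nuclei. Rnf150 and Igf2bp3 went the other way and were higher in macrophage-only than in tumor-only nuclei in all 6 libraries. Rnf150 had 177 to 357 CPM in macrophage-only nuclei. Of the 20 genes, 3 were below their tumor-only level in all 6 libraries and 1 was above it in all 6. Crabp1, among the 3, had 27.3 to 83.0 CPM in double-positive and 38.6 to 122.9 in tumor-only nuclei. The summed list was 0.999 to 1.07 times the level set by the fraction.

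Genes of engulfment and lysosomes did not stand above the mixture, in a fit that these genes took part in. They summed to 2524 to 4359 CPM in tumor-only and 6292 to 7170 CPM in macrophage-only nuclei, and uptake was not tested. Their sum was 0.869 to 0.956 times the level set by the fraction, and of 18 genes 4 lay between the classes in all 6 libraries: Stab1, Elmo1, Lgmn and Lipa. Lgmn, or legumain, had 193 to 303 CPM in double-positive, 91.4 to 189 in tumor-only and 776 to 1057 in macrophage-only nuclei. Of 10 genes of macrophage fusion, Sirpa and Ocstamp lay between the classes in all 6 libraries and the sum was 0.868 to 0.998 times the level set. Dcstamp, a membrane protein of fusing macrophages, reached 26.6 CPM in the double-positive nuclei of its highest library and 11.5 CPM in macrophage-only nuclei. These levels were not from the same library, so they do not give a difference within a library. In double-positive nuclei Dcstamp was above tumor-only nuclei in 4 of 6 libraries.

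Summed over the class, to which deep nuclei give most counts, cycle genes resembled those of tumor-only nuclei. The 15 S-phase genes summed to 1478 to 1777 CPM in double-positive, 1522 to 1815 in tumor-only and 878 to 1168 in macrophage-only nuclei, and the 15 G2/M genes to 1965 to 2414, 1791 to 2513 and 1127 to 1919 CPM. At fractions of 0.7 or more in KO 2 and KO 3, S-phase genes had 1142 and 1213 CPM and G2/M genes 714 and 1422. These values rest on 22 nuclei in KO 2 and 67 in KO 3, with medians of 996.5 and 925 UMIs, and so on few counts. Macrophage-only nuclei of these libraries had 1013 and 1048 CPM for S phase and 1231 and 1275 for G2/M. Their tumor-only nuclei had 1815 and 1782 CPM for S phase and 2250 and 2237 for G2/M. Genes of other cell types were also counted. Endothelial genes summed to 214 to 277 CPM in CO 1 to CO 3, KO 1 and KO 2, most of it Flt1, which tumor-only nuclei also carried at 169 to 259 CPM. In KO 3 they summed to 431 CPM, above the 304 CPM of tumor-only and the 380.04 CPM of macrophage-only nuclei and 1.37 times the level set by the fraction. The sum was also above both other classes in CO 2 (253 against 237 and 225 CPM). The same held in KO 1 (223 against 199 and 101 CPM, 1.21 times the level set). Flt1 supplied 178 CPM of the KO 3 sum, Pecam1 98.3, Cyyr1 55.5 and Ptprb 32.1 CPM. Cyyr1 had 11.03 CPM in tumor-only and 1.85 CPM in macrophage-only nuclei of KO 3. Dendritic genes summed to 64.3 to 103 CPM and red-cell genes to 13.9 to 55.6 CPM. Adipocyte genes summed to 1093 to 2995 CPM, of which the growth hormone receptor gene Ghr made up 1027 to 2931, while Adipoq and Plin1 had no count in double-positive nuclei. Fibroblast genes summed to 1127 to 2429 CPM, close to 1407 to 2948 in tumor-only nuclei, and skeletal muscle genes to 6.99 to 37.8 CPM. Mitochondrial genes made up 49591 to 91965 CPM of double-positive nuclei, beside 55519 to 100059 in tumor-only and 7816 to 18877 in macrophage-only nuclei. Ribosomal protein genes were 0.751 to 0.895 times the level set by the fraction and lower than in either other class in all 6 libraries. Interferon genes were 0.854 to 1.06 times and immediate-early genes 0.729 to 1.08 times the level set.

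Genes that departed most from the mixture were named by a fixed rule, among 8146 genes with at least 20 CPM in double-positive nuclei, here counted per 1000000 UMIs outside the rule genes and the mitochondrial genes, of which 748 departed to the same side in all 6 libraries (287 above, 461 below). The highest was Ccr2, a chemokine receptor of monocytes and lymphocytes, with 68.2, 24.9 and 51.5 CPM on this scale in CO and 57.0, 22.7 and 21.9 in KO, where the fraction set 28.0, 17.9 and 23.4 in CO and 38.3, 11.8 and 12.1 in KO. The median log2 ratio was 0.85. Tox and Stat4, transcription factors of T and NK cells, followed with 0.73 and 0.60, and Gm26992, Rdh5, Pstpip1, Nedd9, Ypel2, Angpt2 and Abca2 lay between 0.37 and 0.46. Genes of the T/NK list summed to a median of 1.40 times the level set, with a range of 0.867 to 2.04. The lowest were Uqcrfs1, a subunit of the respiratory chain (−0.74), Anxa1 (−0.65), Maged1 (−0.64) and Mgp, an inhibitor of calcification (−0.63), and then Thbs1, Atp5e, Heph, D030056L22Rik, Cnpy2 and Pi15 at −0.60 to −0.58.

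The groups were compared over libraries. Double-positive nuclei made up 2.72%, 2.37% and 3.41% of kept nuclei in CO and 3.20%, 3.44% and 4.03% in KO. The means were 2.83 ± 0.528% and 3.56 ± 0.428% (SD, n = 3), so KO stood 0.726 percentage points higher (p 0.2 by exact permutation, adjusted 0.333). The 95% exact binomial interval of a single library was as wide as 2.62% to 4.36% in CO 3. The groups overlapped, and among nuclei with 2000 or more UMIs, a limit chosen after the values were seen, the difference was −0.0152 points. It was 0.371 points without KO 2 and KO 3.

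As a share of macrophage-gated nuclei the class made up 16.2%, 11.4% and 16.4% in CO and 18.9%, 30.9% and 17.9% in KO. All KO libraries were above all CO libraries, with means of 22.6 ± 7.23% and 14.6 ± 2.82% (SD, n = 3; exact permutation p 0.1, the smallest this design allows, adjusted 0.333). With nuclei of 2000 or more UMIs only, the difference of 7.94 points became −1.54, and it was 4.30 without KO 2 and KO 3. As a share of tumor-gated nuclei the class made up 4.58%, 4.65% and 6.70% in CO and 5.81%, 4.33% and 8.07% in KO, with means of 5.31 ± 1.201% and 6.07 ± 1.89% (SD, n = 3; exact permutation p 0.7, adjusted 0.7). Without KO 3 the difference of 0.763 points became −0.238, and without KO 2 and KO 3 it was 0.503.

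**Figure D5:**
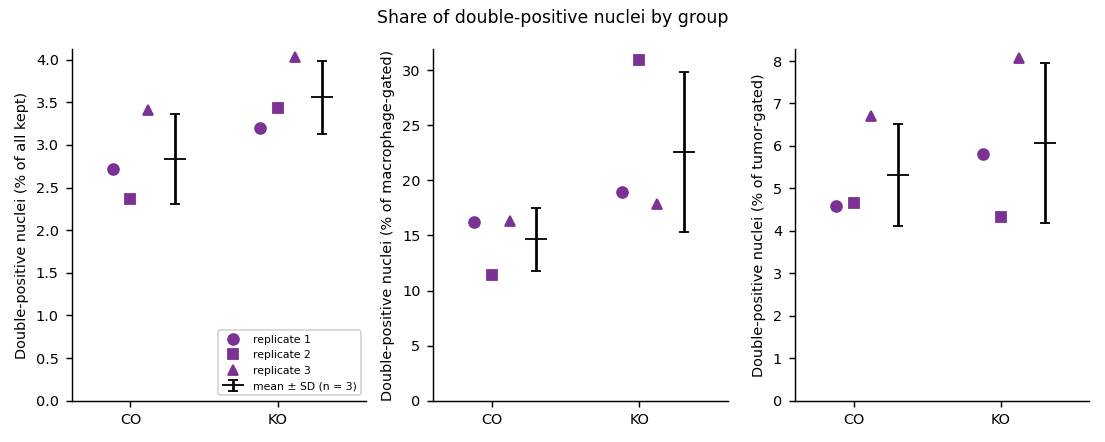
Share of double-positive nuclei in CO and KO libraries (symbols mark replicate numbers; bars give the mean ± SD, n = 3) among all kept, macrophage-gated and tumor-gated nuclei. The groups overlap in the first and last panels; in the middle panel the KO libraries sit at 17.9% to 30.9% and the CO libraries at 11.4% to 16.4%.

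Counts summed over the double-positive nuclei of each library were tested for KO over CO with edgeR. Of 9533 genes tested, 0 (0%) were called at a log2 fold change of 0.58 or more in size and an adjusted p of 0.05 or less, and 473 had an unadjusted p under 0.05. The smallest adjusted p was 0.798. Without overlap between the groups were 10.8% of the genes tested. Among the rule genes, Cadm1 had 219, 180 and 198 CPM in CO and 131, 319 and 462 in KO, which is 0.65 on the log2 scale (SE 0.39) with an edgeR adjusted p of 0.798. Hmga2 gave 0.46 on the log2 scale (SE 0.31), also with an edgeR adjusted p of 0.798. KO 1 lay below all CO libraries for Cadm1, and KO 2 and KO 3 above them.

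None of the gene lists held a called gene. The 8 tested leukocyte genes had a median log2 fold change of −0.11 and the 18 tested macrophage genes outside the rule −0.16, beside −0.03 over all genes tested. The 16 tested tumor genes outside the rule had a median of 0.07. Over all genes tested, 4510 of 9533 were higher in KO, and of the leukocyte genes 1 of 8. The 9 interferon genes had a median of −0.56, with 1 of the 9 higher, and 4 tested immediate-early genes −0.70, with 0 higher. Interferon sums of tumor-only nuclei were 831, 816 and 442 CPM in CO and 615, 415 and 568 in KO. Those of macrophage-only nuclei were 1249, 1215 and 927 CPM in CO and 1013, 520 and 740 in KO. DESeq2 called 1 gene, Cdh13, a cadherin without a transmembrane domain that endothelial cells also express, with a log2 fold change of 3.54 (adjusted p 0.0454, DESeq2) against an edgeR adjusted p of 0.798. Cdh13 had 1, 8 and 3 counts in CO and 32, 13 and 118 in KO, and the 118 counts of KO 3 came from 6 nuclei. The double-positive nuclei of KO 3 also had the highest endothelial sum of the libraries, 431 CPM, and its part in the call was not tested. Without KO 1, edgeR called 648 genes, 166 higher and 482 lower in KO. KO 2 and KO 3 differed from the CO libraries in depth and in the makeup of the class, as given above, and the part of these differences in the 648 calls was not tested.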

How the data were processed

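Nuclei of frozen tumors were profiled with droplet-based 3′ chemistry. The deposited values are UMI counts per gene and barcode, made by the authors with Cell Ranger against GRCm38 (version 3.0.2 per the submitters' processing notes, 3.1.0 per the file headers), and all barcodes had 500 or more UMIs. The values are whole numbers, so the correction for free RNA that the methods name is not visible in them. The labels state extra washes for some samples without saying which.

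The members, the gene lists and the rule for named genes (the 8 rule genes, the listed markers, up to 10 called genes, and the 10 genes furthest above and below the mixture) were chosen with earlier results of these data known. The selection was read as 3 or more counts in total. Double-positive nuclei were kept whatever their doublet score: the automatic threshold of Scrublet (scanpy 1.11.5) marked 23 nuclei (0.128%), too few to have worked, so the 521 nuclei with the highest scores were removed only as an alternative. Xist, Tsix, Mx1, Malat1, Neat1 and Meg3 were not matched in the gene list used here.

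The macrophage fraction was a maximum-likelihood mixture of multinomial profiles. CPM values are class sums of counts scaled to 1000000 UMIs, without TMM factors, and leave out rule and mitochondrial genes where set against the mixture gene by gene. Genes had to reach a mean of 20 CPM to be ranked against the mixture. Shares, fractions and depth ratios of CO and KO were compared with two-sided exact permutation tests over libraries, adjusted over 5 tests. Member counts summed per library were fitted in R 4.3.3 by quasi-likelihood in edgeR 4.0.16 (F-test, TMM, default filter on low counts, no covariate). DESeq2, the tool the study applied to such sums, served as an alternative (1.42.0). Other alternatives changed the gates, the filters on nuclei and low counts, the depth, the libraries left out and the replicate block. Scripts were tested on simulated data. Values of some genes in the lists are not reported here.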

Additional observations from a re-analysis of the deposited data

How the results depend on the processing

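Of 74 alternatives to the 5 comparisons of CO with KO libraries, 64 kept the direction and 10 turned it. No exact permutation p fell below 0.1, and with these numbers of libraries none could. The replicate block leaves each difference unchanged by construction, so its direction could not turn. The difference in the share of kept nuclei (0.726 points) was −0.0950 with 3 or more counts in each of 2 macrophage genes, −0.244 without Cadm1 and −0.0152 with 2000 or more UMIs. The difference in the share of tumor-gated nuclei (0.763 points) was −0.296 with 3 or more counts in each of 2 genes, −0.739 without Cadm1 and −0.575 with at least 500 genes and under 5% mitochondrial counts. The difference in the share of macrophage-gated nuclei was −1.54 points with 2000 or more UMIs. The difference in the macrophage fraction was −0.00188 at a tumor limit of 1% and −0.0218 without KO 2 and KO 3. The cause was not tested. The limit of 2000 UMIs, the fit without Y-linked genes and the removal of KO 2 and KO 3 together were chosen after seeing the data.

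Leaving out 1 library at a time gave differences of 0.489 to 1.014 points for kept, 3.78 to 10.3 for macrophage-gated and −0.238 to 1.63 for tumor-gated nuclei, 0.0719 to 0.335 for the fraction and −1.02 to −0.524 for the depth ratio. The edgeR count of 0 genes became 0 to 648 (648 without KO 1) and 1 with DESeq2. Of the 12 alternatives, Cadm1 passed only without KO 1 (log2 fold change 1.04, edgeR adjusted p 0.0272).

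Deviations of same-numbered libraries from their group means had correlations of 0.375, −0.223 and 0.223. With 3 libraries a group, these values cannot decide whether the numbers pair libraries. With the replicate number as a replicate block, edgeR called 0 genes (813 at an unadjusted p under 0.05, against 473 without the block, smallest adjusted p 0.598). The paired exact permutation p-values, which cannot go below 0.25 with 3 pairs, were 0.25 for the shares of kept (0.726 points) and macrophage-gated nuclei and 0.5 for the other comparisons.

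Under 1000 UMIs the 3-count minimum limits what can be seen of macrophage genes in a nucleus, so absence of the class among shallow nuclei was not shown.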
